A study of Homo sapiens with 12 samples.

Results

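The secreted inflammatory proteins of human U87 cells (U-87 MG, an established glioblastoma cell line) described here are followed through the mRNA of 10 genes, CXCL8, CXCL1, CXCL2, CXCL3, CCL20, CCL2, IL1A, IL1B, IL6 and LIF. They are 10 of the 20263 genes in the deposited table and 10 of the 11731 genes that passed the filter on low values, so every one of them was tested. The genes were chosen by their measured values against the vector group, with the disagreement of the vector libraries already in view. Their differences from vector are therefore a description and carry no test, and tests are given only between the knockout groups. The table holds mRNA levels of cells kept in hypoxia with 1% O2 for 72 h, according to the record of the experiment, while the methods of the study give a shorter exposure for mRNA detection in general. The cells of the vector group carried an empty vector, and the others were knocked out for HIF1α (HIF1α-ko), for HIF2α (HIF2α-ko) or for both (HIF1α/2α-ko), with 3 libraries in each of the 4 groups. All groups shared the cell line and the hypoxia, no normoxic library was analysed here, and whether a knockout group is 1 clone or a pool of cells is not given in the sources used here. Nothing in the labels says that the 3 libraries of a group came from separate cultures, so the p-values measure the spread between these libraries, which may be technical.

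Inflammatory cytokines are messengers that cells release to recruit and activate others. CXCL8, CXCL1, CXCL2 and CXCL3 are CXC chemokines that attract neutrophils through CXCR2, whereas CCL20 attracts cells with CCR6 and CCL2 attracts monocytes through CCR2. IL1A and IL1B encode the agonists of the IL-1 receptor, and IL6 and LIF encode cytokines that signal through the shared receptor chain gp130. Many of these genes are textbook targets of the transcription factor NF-κB, and glioblastoma cells are known to secrete several of them in culture. HIF1α and HIF2α, encoded by HIF1A and EPAS1, are the oxygen-regulated subunits of the hypoxia-inducible factors.

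The DNA just before the start of 5 of these genes is shown because each holds a match to the NF-κB letters and because CXCL1, CXCL2 and CXCL3, near each other on chromosome 4, share many bases there. Each sequence holds the 110 bases before the RefSeq start (GRCh38.p14), 5′ to 3′ on the strand of the gene, and capitals mark matches to GGNNTTTCC, the letters searched for NF-κB.
CXCL8 (chr4:73740459-73740568, plus strand): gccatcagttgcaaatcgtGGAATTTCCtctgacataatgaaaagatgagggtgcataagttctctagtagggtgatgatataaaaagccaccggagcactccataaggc
CXCL1 (chr4:73869283-73869392, plus strand): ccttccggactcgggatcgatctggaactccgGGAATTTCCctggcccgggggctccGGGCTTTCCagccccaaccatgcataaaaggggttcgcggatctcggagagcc
CXCL2 (chr4:74099196-74099305, minus strand): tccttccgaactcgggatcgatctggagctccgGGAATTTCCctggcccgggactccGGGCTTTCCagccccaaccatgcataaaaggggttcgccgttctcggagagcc
CXCL3 (chr4:74038690-74038799, minus strand): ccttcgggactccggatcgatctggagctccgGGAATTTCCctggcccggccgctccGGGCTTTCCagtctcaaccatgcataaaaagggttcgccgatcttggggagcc
IL6 (chr7:22727090-22727199, plus strand): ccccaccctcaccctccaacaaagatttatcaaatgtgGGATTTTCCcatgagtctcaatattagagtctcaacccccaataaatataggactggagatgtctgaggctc
CXCL1 and CXCL3 had the same base at 99 of 110 positions compared without gaps, while CXCL8, on the same chromosome, shared 36 of 110 with CXCL1, and IL6, on chromosome 7, shared 37 of 110 with it. CXCL1, CXCL2 and CXCL3 each held a pair of matches, and CXCL8 and IL6 each held 1.

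Promoter entries were found for 8 of the 10 genes, with a pair of alternative starts for IL1A. CCL2 and LIF had no entry. Within 250 bases before the start and on both strands, GGNNTTTCC was found for 6 of these 8 genes (CXCL8, CXCL1, CXCL2, CXCL3, CCL20 and IL6), against 5.48% of all 35116 promoters. The AP-1 letters TGANTCA were found for CXCL8 and IL1A, against 6.57% of all promoters. The hypoxia response core, ACGTG or GCGTG, was found for CCL20 and IL1A, against 43.2% of all promoters. The C/EBP letters TTNNGNAA were found for CXCL2, IL1A, IL1B and IL6, against 33.2%, and TATAAA for CXCL8, CCL20 and IL1A, against 10.7%. Matches of different motifs may overlap, and a match describes letters and not binding.

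**Figure D1:**
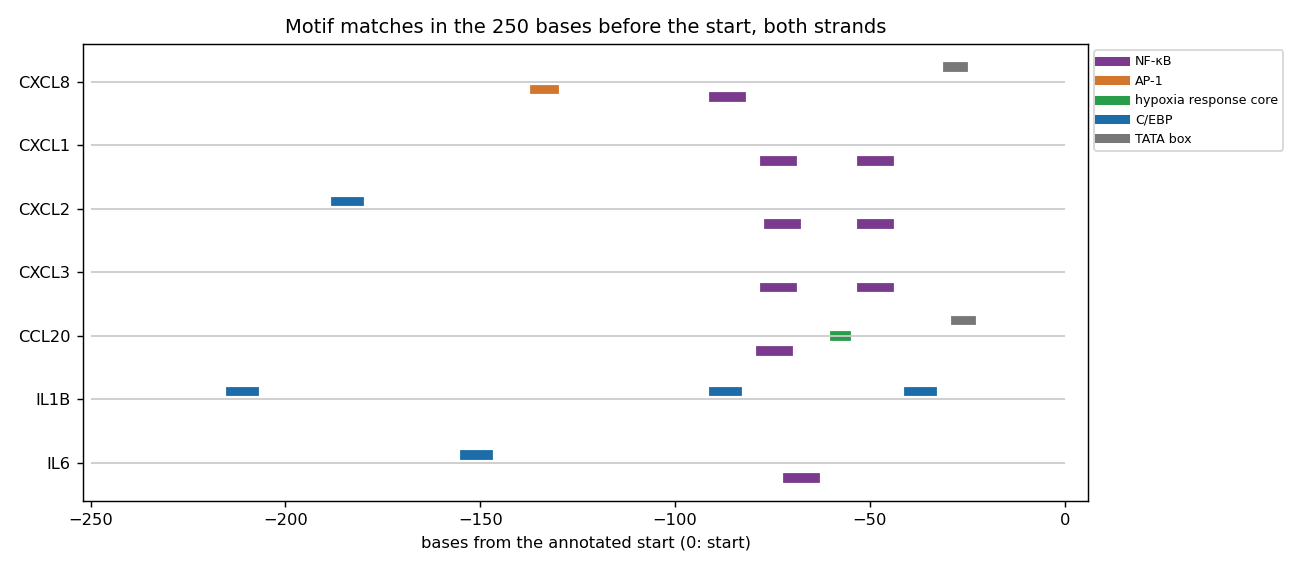
Matches of 5 motifs (coloured bars) in the 250 bases before the annotated start of 7 genes; the horizontal axis gives bases from the start and each grey line is 1 promoter. IL1A is left out because it has 2 starts. The matches to the NF-κB letters of CXCL1, CXCL2 and CXCL3 lie at nearly the same distances from the start, from -78 to -45 bases.

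The values are TPM, a transcript abundance corrected for gene length whose sum is the same in each library, so the depth of each library is unknown and no counting error can be given. HIF1A was at 111.7, 109.99 and 151 TPM in the vector libraries and at 57.3, 49.5 and 38.6 TPM in HIF1α-ko, and it fell by 1.34 on the log2 scale (limma, adjusted p = 0.000851). EPAS1 fell by 1.59 in HIF2α-ko (limma, adjusted p = 0.000375) and by 1.45 in HIF1α/2α-ko (adjusted p = 1.3e-05). HIF1A also fell by 0.71 in HIF1α/2α-ko (limma, adjusted p = 0.0104), where its 67.8 to 89.2 TPM lay above all 3 HIF1α-ko libraries. They overlapped the 76.1 to 108 TPM of HIF2α-ko, where HIF1A was not targeted, and the difference of -0.19 between these groups did not pass (limma, adjusted p = 0.453). An mRNA level does not show whether the protein is lost. Of 9 glial and glioma markers, AQP4 was listed at 0 in every library, GFAP, S100B and SOX2 stayed under 1 TPM, and OLIG2, NES, VIM, CD44 and CHI3L1 reached 1 TPM. The summed level of 19 immune and endothelial markers was 6.72 to 14.1 TPM in vector, 7.497 to 11.4 TPM in HIF1α-ko, 10.8 to 17.3 TPM in HIF2α-ko and 5.0 to 6.32 TPM in HIF1α/2α-ko. Among these markers TYROBP, S100A8, S100A9 and MS4A1 were listed at 0 in every library, and 5 others reached 1 TPM (CSF1R, LYZ, PECAM1, CDH5 and VWF). The part of these markers in the results was not tested. In such bulk libraries, fewer cells of a type and less RNA per cell cannot be told apart.

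The vector libraries disagreed for every one of the 10 genes, with replicate 1 above replicates 2 and 3. CCL20 was at 39.0 TPM in vector replicate 1 and at 2.17 and 1.93 TPM in replicates 2 and 3, a ratio of 19.0 between replicate 1 and the mean of the other two. IL1B was at 101 TPM against 7.65 and 6.49 TPM, a ratio of 14.3, and IL6 at 214 TPM against 18.8 and 19.3 TPM, a ratio of 11.2. The gap was narrowest for CXCL3, with 19.0 TPM against 9.19 and 5.94 TPM, a ratio of 2.51. The median ratio over the 10 genes was 4.07. On the log2 scale the gap was 1.251 to 3.71 with a median of 1.94, while the median over all 11731 genes was 0.06, and 571 of those (4.87%) had a gap of at least 1. In the knockout groups replicate 1 stood on the other side for some of the genes. CXCL8, CXCL1, IL6, IL1A, IL1B and CCL20 each had their lowest value of all 3 knockout groups in that library. For CXCL2 and CXCL3 it was the highest library of HIF1α/2α-ko. Over all genes, too, replicate 1 of the knockout groups deviated together from the group means (Pearson's r 0.463 to 0.508), so this is not particular to these genes. The SD of log2(TPM + 1) over the 10 genes had a median of 1.12 in vector, 0.22 and 0.26 in the HIF1α and HIF2α knockouts and 0.57 in HIF1α/2α-ko, against medians over all genes of 0.24, 0.19, 0.17 and 0.22.

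**Figure D2:**
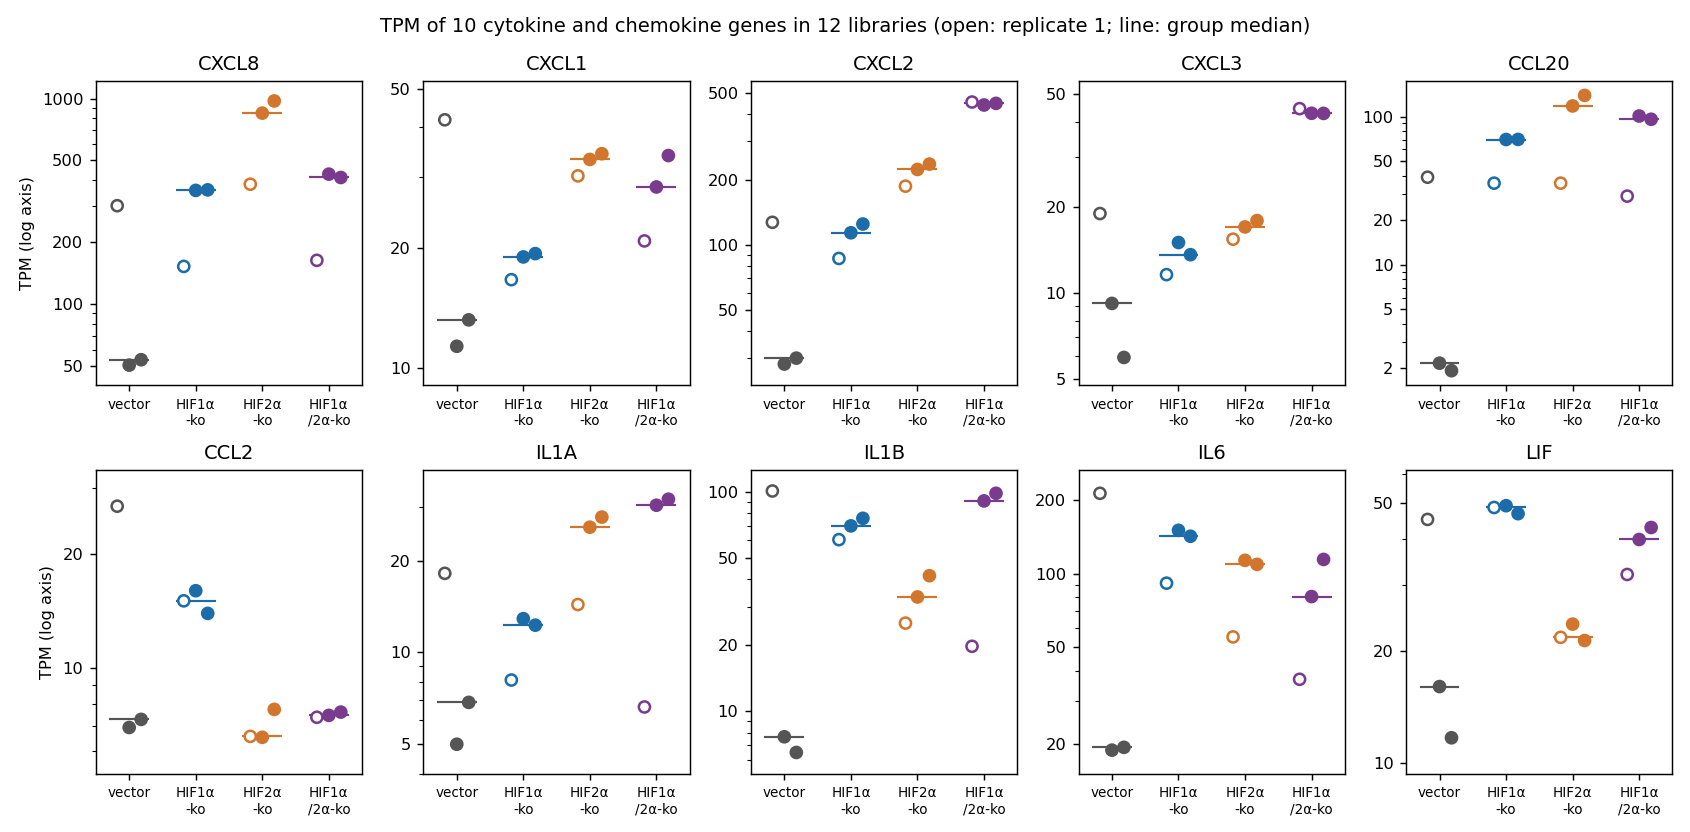
TPM of each gene (vertical log axis) in the 12 libraries of the 4 groups; each point is 1 library, open points are replicate 1 and lines are group medians. Vector replicate 1 is the highest vector library in all 10 panels, at up to 19.0 times the mean of the other two (CCL20), and replicate 1 of the knockout groups is the lowest of its group for CXCL8 and CCL20.

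Against vector, the direction depended on which vector library was used for 8 of the 10 genes in HIF1α-ko and for 5 genes each with the HIF2α and the dual knockout. Set against the mean of vector replicates 2 and 3, HIF1α-ko had all 3 libraries above both of them for all 10 genes, by 0.54 (CXCL1) to 4.22 (CCL20) on the log2(TPM + 1) scale. Set against vector replicate 1, the same libraries were on average above it for CCL20 (0.51) and LIF (0.09) and below it for the other genes, down to -1.15 for CXCL1. HIF2α-ko was above vector replicate 1 for CXCL8 (1.18), CCL20 (1.08), CXCL2 (0.75) and IL1A (0.25) and below it for the rest, down to -1.81 for CCL2. HIF1α/2α-ko was above it for CXCL2 (1.81), CXCL3 (1.15) and CCL20 (0.74), within 0.1 of it for IL1A (0.05) and CXCL8 (0.03), and below it for the rest, down to -1.72 for CCL2. The median difference from the mean of all 3 vector libraries was 1.17 in HIF1α-ko, 0.93 for HIF2α-ko and 1.33 for the dual knockout, and 0.99, 0.97 and 1.12 relative to the median of all genes. With replicate 1 of every group left out, HIF2α-ko had a median of 2.13 and HIF1α/2α-ko one of 2.33.

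Few of the 10 genes lay outside the range of all 3 vector libraries. LIF did so in HIF1α-ko, 1 gene where 39.6% of all genes did not overlap. CXCL8 and CXCL2 did so in HIF2α-ko, where 30.5% of all genes did not overlap, and CXCL2 and CXCL3 in HIF1α/2α-ko, where 50.5% did not. Each was above vector. CCL2 was the one gene without a clear gap even to vector replicates 2 and 3 in HIF2α-ko (6.56, 6.53 and 7.74 TPM against 6.93 and 7.28 TPM). The 3 comparisons share the vector libraries, so the values of one are not independent of the others.

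**Figure D3:**
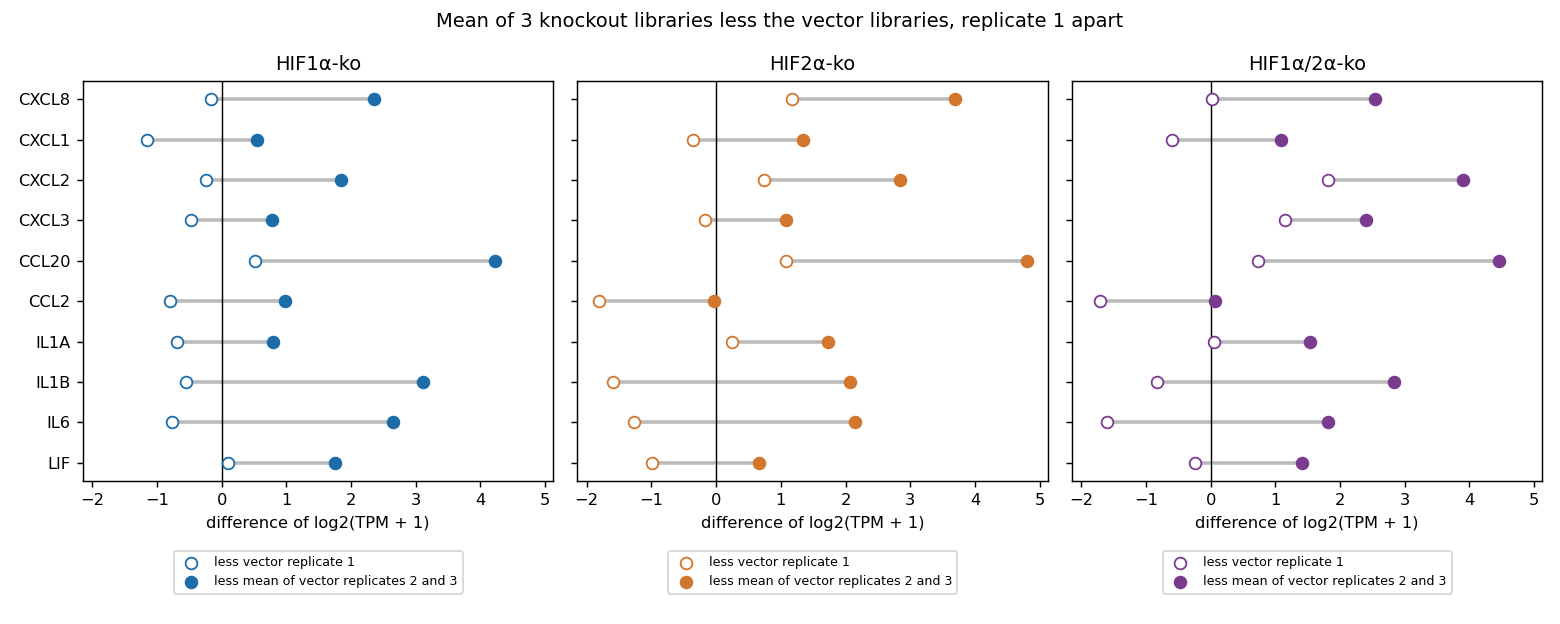
Mean of the 3 libraries of each knockout group less vector replicate 1 (open points) and less the mean of vector replicates 2 and 3 (filled points), as differences of log2(TPM + 1) on the horizontal axis; grey lines join the values of a gene. The open points of IL6 and IL1B lie below 0 and their filled points above 0 in all 3 groups, whereas both points of CXCL2 lie above 0 in HIF2α-ko and HIF1α/2α-ko.

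Between the knockout groups no vector library enters the difference, although the spread of the 4-group fit includes the vector libraries. The same-numbered libraries of the 3 knockout groups deviated together, most clearly for replicate 1. A fit of these groups that takes up the replicate number as a block is given beside the 4-group fit wherever it changed a call. It also leaves out the vector libraries, so a changed call may come from that and not from the block. Fold changes are differences of log2(TPM + 1) from limma and every adjusted p is Benjamini-Hochberg over all 11731 genes.

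CXCL2, a neutrophil chemokine, was at 86.5, 114 and 125 TPM in HIF1α-ko, 187, 223 and 236 TPM in HIF2α-ko and 456, 442 and 449.7 TPM in HIF1α/2α-ko. These 3 ranges did not overlap, in that order. It rose by 2.06 (SE 0.42) in HIF1α/2α-ko against HIF1α-ko (adjusted p = 0.00353). The difference of 1.07 (SE 0.42) from HIF2α-ko missed the threshold (adjusted p = 0.0538) and passed it with the block (adjusted p = 8.58e-05). HIF2α-ko was 0.99 above HIF1α-ko (adjusted p = 0.0987, and 0.000346 with the block). A limma fit of the 3 knockout groups without a block also passed both (adjusted p = 0.000232 for HIF1α/2α-ko against HIF2α-ko and 0.00106 for HIF2α-ko against HIF1α-ko).

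CXCL3, its close paralog, was at 11.6, 15.0 and 13.6 TPM in HIF1α-ko, 15.5, 17.1 and 17.96 TPM in HIF2α-ko and 44.4, 42.8 and 42.7 TPM in HIF1α/2α-ko. The dual knockout stood far from both single knockouts, which lay next to each other. CXCL3 rose by 1.63 (SE 0.29) against HIF1α-ko (adjusted p = 0.00144) and by 1.32 (SE 0.29) against HIF2α-ko (adjusted p = 0.00258). The single knockouts differed by 0.31 with a 95% confidence interval of -0.31 to 0.93 (adjusted p = 0.432, and 0.0363 with the block).

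CXCL1, the third of these paralogs, was at 16.6, 19.0 and 19.3 TPM in HIF1α-ko, 30.2, 33.2 and 34.4 TPM in HIF2α-ko and 20.8, 28.4 and 34.0 TPM in HIF1α/2α-ko. It did not share the high level that CXCL2 and CXCL3 had in the dual knockout, which overlapped HIF2α-ko. HIF2α-ko was 0.80 above HIF1α-ko (adjusted p = 0.118, and 0.00122 with the block) and HIF1α/2α-ko 0.55 above HIF1α-ko (adjusted p = 0.283, and 0.00557 with the block). A limma fit of the 3 knockout groups without a block also passed both (adjusted p = 0.00779 and 0.0323). Of all 50-base windows of the CXCL1, CXCL2 and CXCL3 transcripts in GENCODE 29, 5.73%, 9.24% and 5.26% also occurred in another of the 3, so their levels are uncertain to the extent that the authors' counting could move such reads. The other 7 genes shared no such window with any gene.

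CXCL8, which encodes interleukin-8, was the most abundant of the 10 in HIF2α-ko. It was at 153, 357 and 359.6 TPM in HIF1α-ko, 383, 849.6 and 974 TPM in HIF2α-ko and 163, 429 and 413 TPM in HIF1α/2α-ko. In each group replicate 1 was lower than the other two, and within each number HIF2α-ko was highest. The difference of 1.34 (SE 0.64) between HIF2α-ko and HIF1α-ko did not pass the 4-group fit (adjusted p = 0.139) and passed with the block (SE 0.07, adjusted p = 1.81e-05). HIF1α/2α-ko was 1.15 below HIF2α-ko (adjusted p = 0.161, and 1.51e-05 with the block). For HIF1α/2α-ko against HIF1α-ko the value was 0.19, with an interval of -1.204 to 1.58 and, with the block, of 0.02 to 0.35 (adjusted p = 0.857, and 0.0612 with the block).

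CCL20 was at 35.6, 70.1 and 70.2 TPM in HIF1α-ko, 35.6, 118 and 139 TPM in HIF2α-ko and 29.1, 101 and 96.0 TPM in HIF1α/2α-ko. Replicate 1 was the lowest of every group and these 3 libraries lay close together, so the groups overlapped. HIF2α-ko was 0.57 above HIF1α-ko (adjusted p = 0.644, and 0.0308 with the block). Neither fit placed HIF1α/2α-ko apart from a single knockout for CCL20, with adjusted p of 0.873 and 0.774 without the block and 0.326 and 0.130 with it.

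CCL2, the monocyte chemoattractant, went the other way and was tight within groups. It was at 15.0, 16.004 and 13.9 TPM in HIF1α-ko, 6.56, 6.53 and 7.74 TPM in HIF2α-ko and 7.38, 7.46 and 7.61 TPM in HIF1α/2α-ko. Both groups with the HIF2α knockout lay below HIF1α-ko with no overlap. The differences of -1.01 (SE 0.36) and -0.91 (SE 0.36) missed the threshold in the 4-group fit (adjusted p = 0.0581 and 0.0781) and passed it with the block (0.00039 and 0.000465). Without a block, a limma fit of the 3 knockout groups passed both too (adjusted p = 0.00059 and 0.000713). HIF1α/2α-ko and HIF2α-ko differed by 0.10 with a 95% confidence interval of -0.69 to 0.89.

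IL1A was at 8.12, 12.9 and 12.3 TPM in HIF1α-ko, 14.4, 25.8 and 27.9 TPM in HIF2α-ko and 6.62, 30.5 and 31.9 TPM in HIF1α/2α-ko. The dual knockout spanned the range of all other knockout libraries. HIF2α-ko was 0.94 above HIF1α-ko without overlap (adjusted p = 0.209, and 0.0274 with the block), and HIF1α/2α-ko passed neither fit against either single knockout.

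IL1B, whose product is secreted after cleavage by caspase-1, was at 60.5, 69.9 and 75.7 TPM in HIF1α-ko, 25.2, 33.2 and 41.5 TPM in HIF2α-ko and 19.8, 90.9 and 98.4 TPM in HIF1α/2α-ko. The agonists of the IL-1 receptor thus had opposite orders in the single knockouts, IL1A higher and IL1B lower in HIF2α-ko, each without overlap. IL1B was 1.05 lower there than in HIF1α-ko (95% confidence interval of the log2 difference -2.84 to 0.75, adjusted p = 0.357, and 0.0449 with the block). Against HIF1α-ko the dual knockout had replicates 2 and 3 above and replicate 1 below every library, and the difference passed neither fit (adjusted p = 0.836, and 0.564 with the block).

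IL6 was at 91.4, 151 and 142 TPM in HIF1α-ko, 55.0, 113 and 109 TPM in HIF2α-ko and 36.8, 80.5 and 114 TPM in HIF1α/2α-ko. The groups overlapped, while within each number HIF1α-ko was highest. HIF2α-ko was 0.50 below HIF1α-ko on the log2 scale (difference -0.50, adjusted p = 0.633, and 0.0354 with the block). For HIF1α/2α-ko the difference from HIF1α-ko was -0.83 (adjusted p = 0.436, and 0.00454 with the block), and from HIF2α-ko it was -0.33 and passed neither fit.

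LIF, of the same cytokine family, was at 48.7, 49.2 and 46.8 TPM in HIF1α-ko, 21.7, 23.6 and 21.3 TPM in HIF2α-ko and 32.1, 39.9 and 43.0 TPM in HIF1α/2α-ko. The 3 groups did not overlap, with the dual knockout between the single knockouts. LIF fell by 1.09 (SE 0.35) in HIF2α-ko against HIF1α-ko (adjusted p = 0.0379, and 0.000274 with the block). This call was lost under median ratio scaling (-0.87, adjusted p = 0.0899), quantile normalization (adjusted p = 0.0696) and no filter (adjusted p = 0.0688), and when any 1 of the 6 libraries of those groups was left out (adjusted p up to 0.106). HIF1α/2α-ko was 0.75 above HIF2α-ko (adjusted p = 0.0933, and 0.000545 with the block), and -0.33 from HIF1α-ko (adjusted p = 0.509, and 0.0333 with the block). The difference from HIF2α-ko also passed in a limma fit of the 3 knockout groups without a block (adjusted p = 0.000887).

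**Figure D4:**
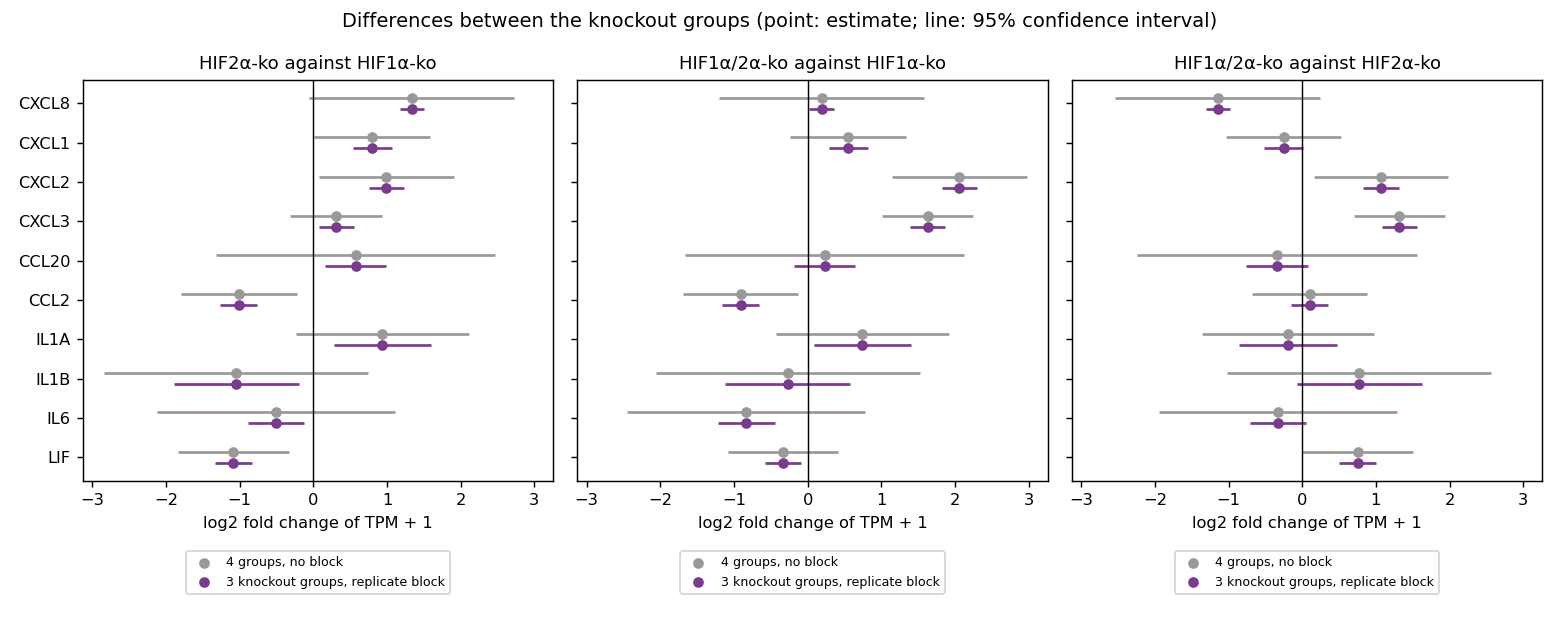
Differences between the knockout groups as log2 fold changes of TPM + 1 (horizontal axis) with 95% confidence intervals, for the fit of 4 groups (grey) and the fit of the 3 knockout groups with a replicate block (purple). The estimates are equal in both fits and the intervals are narrower with the block; CXCL2 and CXCL3 lie above 0 in both fits for HIF1α/2α-ko against either single knockout.

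Over the 10 genes, the 4-group fit called 1 gene in HIF2α-ko against HIF1α-ko (LIF, lower), where it called 25.1% of all genes. It called 2 genes in HIF1α/2α-ko against HIF1α-ko (CXCL2 and CXCL3, higher; 28.3% of all genes) and 1 gene in HIF1α/2α-ko against HIF2α-ko (CXCL3, higher; 46.4% of all genes). With the block the fit called all 10 genes in HIF2α-ko against HIF1α-ko, 6 higher and 4 lower, where it called 50.5% of all genes. The 6 were CXCL8, CXCL1, CXCL2, CXCL3, CCL20 and IL1A, and the 4 were CCL2, IL1B, IL6 and LIF. For HIF1α/2α-ko against HIF1α-ko it called 6 genes, 3 higher and 3 lower, against 48.5% of all genes, and for HIF1α/2α-ko against HIF2α-ko 4 genes, 3 higher and 1 lower, against 62.6%. The ranges of the libraries did not overlap for 8, 5 and 3 of the 10 genes in these comparisons, and for 49.9%, 44.3% and 56.7% of all genes. In the 4-group fit the counts of all 3 comparisons lie below the share over all genes. With the block and for the ranges that did not overlap, the counts of the last 2 comparisons lie near or below it. The median over the 10 genes was 0.44, 0.21 and -0.05, while over all genes it was -0.23, 0.07 and 0.23, so relative to all genes it was 0.67, 0.13 and -0.28.

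Leaving out single vector libraries changed these counts although no vector library enters the differences: without vector replicate 1 the 4-group fit called 5, 4 and 3 of the 10 genes. Without vector replicate 2 they were 2, 2 and 2, and without vector replicate 3 they were 1, 2 and 3. In HIF2α-ko against HIF1α-ko the limma fit called 0 of the 10 genes without any 1 of the 6 libraries compared, as the call of LIF was lost. In HIF1α/2α-ko against HIF1α-ko it called 3 without HIF1α/2α-ko replicate 1.

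The other genes of the cytokine network were read from 4 lists with 154 genes, of which 78 passed the filter. Against vector, the 4-group fit called 23 of the 78 in HIF1α-ko (16 higher and 7 lower; 26.1% of all genes called), 14 with the HIF2α knockout (8 and 6; 11.0% of all genes) and 41 with both (29 and 12; 46.7% of all genes). Between the knockouts it called 23 in HIF2α-ko against HIF1α-ko (10 and 13), 28 in HIF1α/2α-ko against HIF1α-ko (15 and 13) and 26 in HIF1α/2α-ko against HIF2α-ko (17 and 9). These are 29.5%, 35.9% and 33.3% of the 78, beside 25.1%, 28.3% and 46.4% of all genes, so the last lies below the share over all genes. The directions depended on scaling, since the median of all genes in these 6 comparisons was 0.18, -0.04, 0.21, -0.23, 0.07 and 0.23 with the deposited TPM and within 0.04 of 0 after median ratio scaling. With that scaling the 78 genes gave 13 higher and 8 lower, 11 and 3, 21 and 18, 11 and 6, 11 and 17, and 13 and 25. All genes gave 3732 higher and 1741 lower in HIF1α/2α-ko against vector, and 2794 and 2673 after median ratio scaling.

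Among other chemokines most mRNAs were at or near 0. Of 30 genes, 13 were listed at 0 in every library, CXCL6, CXCL10 and CXCL12 among them, and 4 passed the filter (CXCL14, CCL3, CCL5 and CCL26). CCL26, the eosinophil chemokine eotaxin-3, was at 19.3, 11.1 and 13.8 TPM in vector, 46.5, 33.8 and 30.1 TPM in HIF1α-ko, 8.49, 7.09 and 8.04 TPM in HIF2α-ko and 4.97, 3.80 and 5.13 TPM in HIF1α/2α-ko. It rose by 1.27 in HIF1α-ko against vector (limma, adjusted p = 0.00185) and fell by 1.46 in HIF1α/2α-ko (adjusted p = 0.000174), with no overlap of either group with vector. CXCL14 fell by 2.18 in HIF1α/2α-ko against vector (limma, adjusted p = 0.000398), from 9.58 to 12.7 TPM in vector to 0.90 to 3.37 TPM. CCL5 fell by 0.96 in HIF1α-ko (adjusted p = 0.0297), a call that ended when HIF1α-ko replicate 2 or 3, or replicate 1 or 3 of vector, was left out, and with no filter (adjusted p = 0.0549).

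Other cytokines were called in both directions. Of 46 genes 19 passed the filter, and 6 rose and 3 fell in HIF1α/2α-ko against vector (4 and 4 after median ratio scaling). These are 31.6% and 15.8% of the list, close to the 31.8% and 14.8% of all genes. CSF1, the growth factor of macrophages, was at 27.2, 13.3 and 17.4 TPM in vector, 38.7, 19.4 and 19.4 TPM in HIF2α-ko and 190.2, 90.5 and 83.1 TPM in HIF1α/2α-ko, and it rose by 2.25 in the dual knockout against HIF1α-ko (limma, adjusted p = 0.000679) and by 2.54 against vector (adjusted p = 0.000112). CLCF1, another ligand of the IL-6 family, rose by 1.55 against vector (limma, adjusted p = 2.77e-05). IL1RN, the natural antagonist of the IL-1 receptor, fell by 1.38 in HIF1α/2α-ko against HIF1α-ko (limma, adjusted p = 0.0023). MIF, a cytokine known as a hypoxia-inducible gene, was among the most abundant, at 1621 to 2272 TPM in vector, and fell by 0.85 in HIF1α-ko (limma, adjusted p = 0.000885). MIF rose by 1.18 in HIF2α-ko against HIF1α-ko (adjusted p = 5.91e-05). IL23A rose by 0.93 in HIF1α-ko against vector (limma, adjusted p = 0.00471), at 1.201 to 1.90 TPM in vector and 3.22 to 4.33 TPM in HIF1α-ko. IL11 rose by 0.69 in HIF2α-ko (adjusted p = 0.0157), a call that ended when HIF2α-ko replicate 2 or 3, or replicate 3 of vector, was left out, and in a fit of the 2 groups only (adjusted p = 0.0635).

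Of 41 receptor genes 22 passed the filter, and CXCR2 and CXCR3 were listed at 0 in every library. In HIF1α/2α-ko against HIF1α-ko 2 rose and 8 fell (0 and 10 after median ratio scaling), where 17.7% of all genes rose and 10.6% fell. IL6R, the receptor of IL-6, was at 14.7, 19.6 and 22.2 TPM in vector and 7.82, 3.93 and 4.23 TPM in HIF1α/2α-ko and fell by 1.68 (limma, adjusted p = 9.06e-05). IL11RA fell by 0.93 in HIF1α/2α-ko against HIF1α-ko (limma, adjusted p = 0.00111). IL1RAP, the accessory chain of the IL-1 receptor, fell by 1.05 in HIF2α-ko against vector (limma, adjusted p = 0.0169), a call that ended when HIF2α-ko replicate 1, or replicate 3 of vector, was left out, and with 2 groups only (adjusted p = 0.0511). TNFRSF1B, a receptor of TNF, rose by 1.39 in HIF1α/2α-ko against vector (limma, adjusted p = 0.000111), from 42.6 to 75.4 TPM in vector to 118 to 152 TPM. IFNGR1, a chain of the interferon-γ receptor, rose by 1.47 in HIF1α/2α-ko against HIF2α-ko (limma, adjusted p = 0.000185). IL17RC rose by 0.69 in HIF1α-ko against vector (adjusted p = 0.0167), a call that needed replicates 2 and 3 of HIF1α-ko and of vector, since leaving out any 1 of them ended it, as did a fit of the 2 groups only (adjusted p = 0.0569).

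Genes of the NF-κB pathway rose more often than they fell in HIF1α/2α-ko against vector. Of 37 genes 33 passed the filter, and 19 rose and 1 fell (14 and 2 after median ratio scaling). These are 57.6% and 3.03% of the list, beside 31.8% and 14.8% of all genes. The median was 0.84, or 0.64 relative to all genes. Against HIF1α-ko 10 rose and 0 fell (9 and 2 after that scaling), 30.3% and 0% beside 17.7% and 10.6% of all genes. Against HIF2α-ko 9 rose and 2 fell (7 and 6 after that scaling), 27.3% and 6.06% beside 33.5% and 12.9%. The median there was -0.02 relative to all genes. In the single knockouts against vector, after median ratio scaling, 5 rose and 2 fell (HIF1α-ko) and 9 rose and 0 fell (HIF2α-ko). Without that scaling 8 rose and 2 fell (HIF1α-ko) and 7 rose and 1 fell (HIF2α-ko). As shares of the list these are 24.2% and 6.06% in HIF1α-ko, near the 17.3% and 8.77% of all genes, and 21.2% and 3.03% in HIF2α-ko, beside 5.07% and 5.89% of all genes. RELB, the NF-κB subunit of the noncanonical arm, was at 39.4, 35.2 and 31.7 TPM in vector, 90.1, 103 and 103 TPM in HIF1α-ko, 57.4, 61.2 and 59.7 TPM in HIF2α-ko and 168, 205 and 192 TPM in HIF1α/2α-ko. No group overlapped another, and RELB rose against vector by 1.46 (limma, adjusted p = 3.61e-05), 0.74 (0.00498) and 2.38 (3.13e-07). IRAK2, a kinase downstream of the IL-1 receptor, rose by 1.82 in HIF1α/2α-ko against vector (limma, adjusted p = 4.67e-05), from 11.8 to 24.5 TPM in vector to 48.4 to 64.4 TPM. BCL3, an atypical IκB protein, rose by 1.51 in HIF1α/2α-ko against HIF2α-ko (limma, adjusted p = 3.25e-05). ZFP36L1, which binds AU-rich elements and promotes mRNA decay, rose by 1.4996 in HIF1α-ko against vector (limma, adjusted p = 0.00966) and by 2.24 in HIF2α-ko (0.00363). Its vector libraries spread from 60.4 to 156 TPM, and both calls held with any 1 library left out. NFKBIA, which encodes the inhibitor IκBα, rose by 1.29 in HIF2α-ko against HIF1α-ko (limma, adjusted p = 0.00247).

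**Figure D5:**
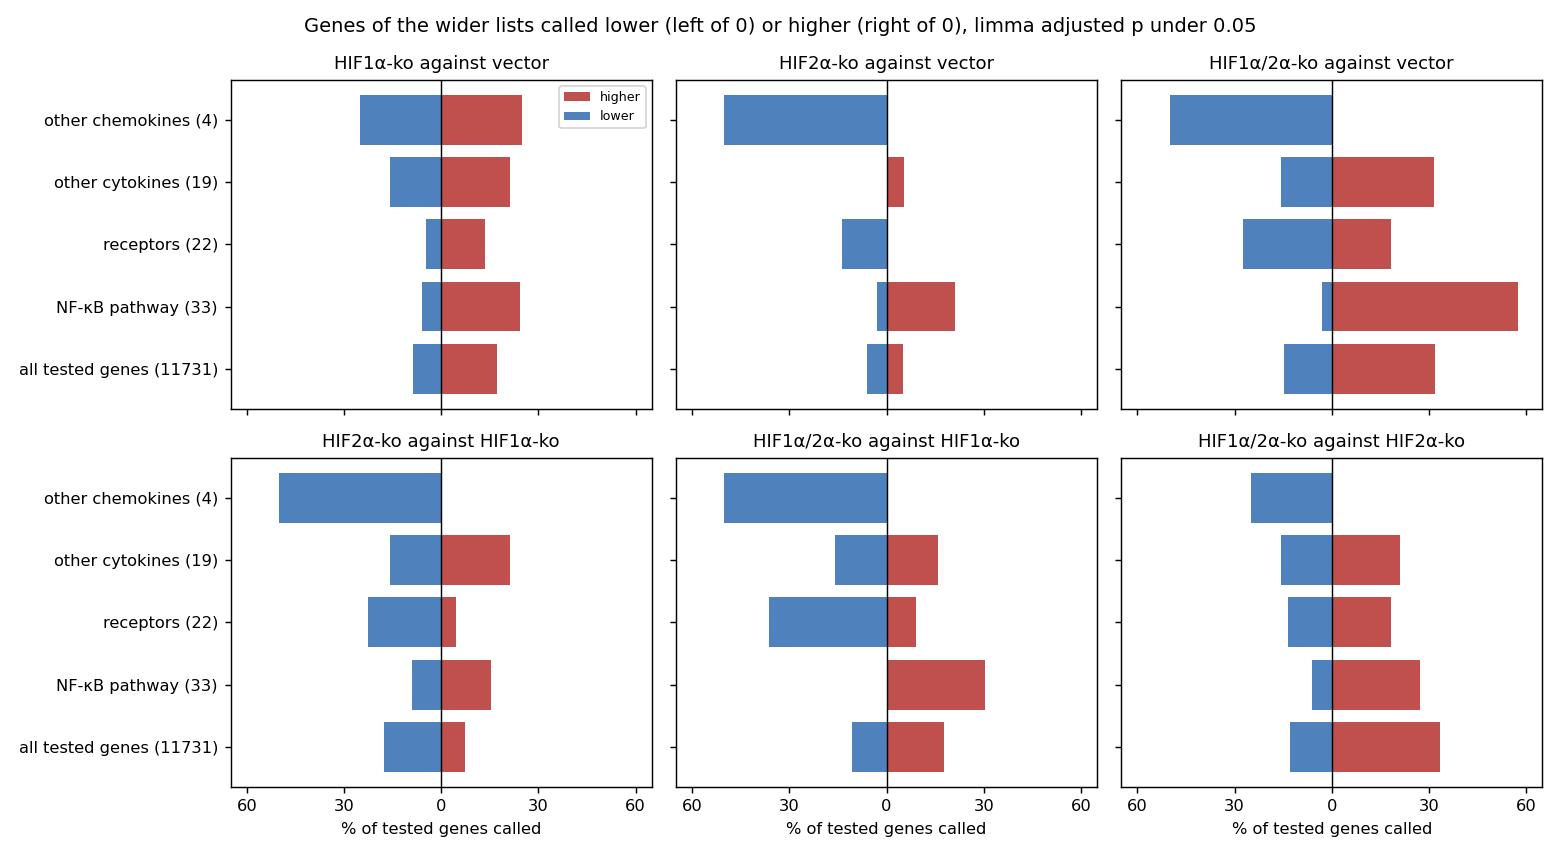
Percent of the tested genes of each list called higher (right of 0) or lower (left of 0) by limma at an adjusted p under 0.05 in 6 comparisons, with the number of tested genes in parentheses and all tested genes in the lowest bar. In HIF1α/2α-ko against vector 57.6% of the NF-κB pathway genes were called higher, beside 31.8% of all genes; other chemokines hold 4 genes only.

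The 10 genes did not all share 1 pattern over the 12 libraries, as CCL2 stood apart from the others. Pearson's r of each gene with the mean of the other 9 was highest for CCL20 (0.94), IL1B (0.88), IL6 (0.85) and CXCL8 (0.85) and lowest for CCL2 (0.22). For the remaining genes it was 0.64 (CXCL3) to 0.80 (CXCL1). Outside the 10, the genes with a pattern most like their mean over the 12 libraries were ARID3B (r = 0.96, Spearman's rho = 0.92), CSF3 (0.96 and 0.88), MSMO1 (0.96 and 0.85), NFKBIZ (0.96 and 0.91), PIGG (0.96 and 0.76) and L3HYPDH (0.95 and 0.87). CSF3 encodes the granulocyte growth factor and was at 378 TPM in vector replicate 1 and at 20.6 and 38.8 TPM in replicates 2 and 3. NFKBIZ, which encodes an atypical IκB protein, was at 142 TPM against 14.5 and 17.8 TPM. With vector replicates 2 and 3 left out, the libraries farthest from the median, r was 0.71 to 0.87 for the 6 genes. The genes most like CXCL8 were NFKBIZ (r = 0.95), DCBLD1 (0.93) and ABCC3 (0.92), with 0.83, 0.91 and 0.75 without those libraries. These values describe libraries that share the scaling and the disagreement of the vector group.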

How the data were processed

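mRNA of 12 libraries of U87 cells was measured by sequencing of kit-made mRNA libraries, and the authors deposited TPM values of 20263 genes. The submitters' processing notes name FastQC 0.11.2, Trimmomatic 0.36, HISAT2 2.0, bedtools 2.26.0 and the build GRCh38; the annotation and the tool that computed TPM are not given in the sources used here. Column totals were 999955 to 999982. Columns whose names carry no knockout code were mapped to vector. Symbols were found for all but 39 genes, through a table of gene names and GENCODE 29.

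The 11731 genes that reached a TPM of 1 in 3 or more libraries were fitted, as log2(TPM + 1), with limma 3.58.1 in R 4.3.3 (mean-variance trend, 4 groups in 1 model), with Benjamini-Hochberg adjustment within each comparison and a threshold of 0.05. The pseudocount of 1 makes fold changes of low genes too small. The fit was tested on simulated data with independent noise and 1 spread per gene for all groups. That setting holds neither the wider spread of the vector libraries for the 10 genes nor the shared deviations of replicate 1. It therefore does not test the fit under these conditions. Python 3.11.15 with numpy 2.4.6, pandas 2.3.3 and, for plots, matplotlib 3.10.9 was used for the rest.

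The 10 genes, the lists and the tests were chosen with earlier results of these data known; the lists were written from textbook knowledge. The genes named outside the 10 are HIF1A and EPAS1, in each list and comparison the 2 called genes with the smallest p, the 6 genes most correlated with the mean of the 10 and the 3 most correlated with CXCL8. Genes listed at 0 were named as examples after their values were seen.

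Same-numbered libraries of the 3 knockout groups deviated together from their group means across genes (Pearson's r 0.463 to 0.508 for number 1, 0.227 to 0.250 for number 2 and 0.196 to 0.222 for number 3), so the numbers were taken to pair these groups. This rests on the values, as what a number stands for is not given in the sources used here. Deviations from a group mean balance out within the group. A shared deviation of number 1 alone would therefore also give positive r for numbers 2 and 3. Libraries of unlike numbers were not compared, so a pairing of numbers 2 and 3 is not shown apart from number 1. With vector r was -0.0265 to 0.163, and no pairing was used.

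Alternatives were each library left out in turn, replicate 1 of all groups left out, fits of fewer groups, replicate blocks, no trend, no filter or a mean TPM of 5, a pseudocount of 0.1, quantile normalization, median ratio scaling, and a log2 change of at least 1. The interaction of the knockouts and the counts of groups that do not overlap were added after seeing the data. Promoters are RefSeq entries. The value of 1 marker gene is not reported here.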

Additional observations from a re-analysis of the deposited data

Results flagged for a closer look

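Among the 20 named genes of the wider lists, the interaction of the knockouts was tested with limma, adjusted over all genes, and 5 passed the threshold. It is the difference of HIF1α/2α-ko from HIF1α-ko less the difference of HIF2α-ko from vector. Whether the dual knockout was made from the HIF1α-ko cells is not given in the sources used here. The 20 genes were named for small p in comparisons of these same libraries, so 5 of 20 may overstate how often genes passed. The share over all genes is not given here. On the log2 scale the interaction was -1.93 for CCL26 (limma, adjusted p = 0.00192), 1.48 for BCL3 (0.00236) and -1.10 for IL17RC (0.0113). For CSF1 it was 1.86 (0.0209) and for IRAK2 0.99 (0.0428), where the median of all genes was 0.12. The call of CSF1 was lost without HIF1α-ko replicate 3 or HIF2α-ko replicate 2 or 3. The call of IRAK2 was lost without any 1 library of HIF1α-ko or HIF2α-ko and without HIF1α/2α-ko replicate 2 or 3, and under no filter (adjusted p = 0.0673), median ratio scaling (0.0537) and quantile normalization (0.0519). The 10 cytokine and chemokine genes were not tested for it, because it uses the vector libraries.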

How the results depend on the processing

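In the order HIF2α-ko against HIF1α-ko, HIF1α/2α-ko against HIF1α-ko and HIF1α/2α-ko against HIF2α-ko, the limma fit called 1, 2 and 1 of the 10 genes. In the first comparison it called 0 with no filter, with median ratio scaling and with quantile normalization, and 7 with those 2 groups only. The 3 knockout groups alone gave 4, 4 and 3, the replicate block on them 10, 6 and 4, and leaving out replicate 1 of all groups 8, 7 and 6; the third comparison gave 3 with 2 groups only. With single libraries left out the counts were 0 to 5, 2 to 4 and 1 to 3. The larger counts of the block also hold over all genes, of which it called 5927 and 5684 in the first and second comparison, against 2949 and 3322.

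In the same order the wider lists gave 23, 28 and 26 calls, 51, 47 and 50 with the replicate block, 47, 47 and 50 without replicate 1 of all groups, and 8, 8 and 12 at a log2 change of at least 1; the first gave 35 with 2 groups only. Against vector (HIF1α-ko, HIF2α-ko, HIF1α/2α-ko) the calls were 23, 14 and 41, then 53, 38 and 62 without replicate 1 of all groups, 7, 5 and 22 at a log2 change of at least 1, and 12 and 3 in the single knockouts with 2 groups only. With single libraries left out they were 11 to 32, 18 to 36, 20 to 38, 7 to 37, 2 to 30 and 28 to 49.

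Over all genes, leaving out replicate 1 of all groups gave 5521 and 5276 calls in the first and second comparison of knockouts, and 6461 and 4283 in HIF1α-ko and HIF2α-ko against vector. A log2 change of at least 1 left 764, 1000 and 2160 calls between knockouts and 814, 263 and 2193 against vector. HIF2α-ko against vector gave 474 with 2 groups only and 2068 with the replicate block on all groups. With single libraries left out the calls were 1451 to 3746, 2310 to 4072 and 4237 to 6004 between knockouts, and 1552 to 4194, 471 to 2497 and 4319 to 5961 against vector; the lowest in HIF2α-ko was without vector replicate 3. The median difference of the 10 genes from vector was 0.82 to 1.80, 0.50 to 1.90 and 0.88 to 2.11, highest without vector replicate 1 in each group, and with replicate 1 of all groups left out HIF2α-ko had 2.13 and HIF1α/2α-ko 2.33.

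Some differences that were not called changed sign. With single libraries left out, HIF1α/2α-ko against HIF1α-ko ran from -0.22 to 0.64 for CXCL8, from -0.092 to 0.80 for CCL20 and from -0.67 to 0.46 for IL1B, which was at 0.37 without replicate 1 of all groups. In HIF1α/2α-ko against HIF2α-ko, CCL2 was -0.16 with median ratio scaling and -0.25 with quantile normalization, CCL20, IL6 and IL1A ran from -0.95 to 0.23, -0.68 to 0.12 and -0.56 to 0.50 with single libraries left out, the highest each without HIF1α/2α-ko replicate 1, and IL1A was 0.21 without replicate 1 of all groups. CXCL14 in HIF2α-ko lost its call against HIF1α-ko and against vector in several fits, with adjusted p up to 0.158 and 0.150 without single libraries. The cause was not tested. With no depth in TPM, counting error is unknown.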
